A study of Mus musculus with 8 samples.

Results

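The 29 genes described here encode the enzymes that build cholesterol and fatty acids, with 4 proteins that control the pathway or carry sterols. They were taken as a list of named genes, not by their values, and make up 29 of the 48440 genes listed in each of the 8 RNA sequencing libraries. By role, 7 genes encode enzymes from acetyl-CoA to farnesyl diphosphate, 12 act from squalene to cholesterol, 4 are regulators and a sterol carrier, and 6 make and desaturate fatty acids. All 29 passed the filter on low counts.

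The libraries came from mouse embryonic stem (ES) cells on day 1 of in vitro differentiation, with 2 libraries for each of 4 genotypes. All 4 genotypes are lines of MK6, an ES cell line from the C57BL/6J strain, and all were differentiated without feeder cells in N2/B27 medium with the GSK3 inhibitor CHIR99021. Wild-type cells were the controls. *Tbxt* Δexon6/Δexon6 cells lack exon 6 of *Tbxt*, which encodes the mesodermal transcription factor Brachyury, on both alleles (delE6/delE6 in the labels). *Tbxt* Δexon6/+ cells lack that exon on a single allele (delE6/+). *Tbxt* insASAY/insASAY cells carry an AluSx1 and an AluY element in the introns that flank exon 6 on both alleles (Insert ASAY). The exon 6 deletions were made in feeder-free culture under blasticidin, whereas the Alu pair was inserted on feeder cells with a selection cassette that was later removed by Cre. The 2 Δexon6/Δexon6 libraries came from different clones. Whether the libraries of the other lines came from 1 clone or more was not stated, so a genotype cannot be told apart from the clone that carries it, and p-values measure only the spread between these libraries.

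Cholesterol is made from acetyl-CoA through mevalonate, isoprenoid units, squalene and lanosterol. Transcription of the pathway is driven by SREBP-2, the product of *Srebf2*, and by SREBP-1, the product of *Srebf1*, which acts more on fatty acid genes. Both are held in the endoplasmic reticulum by Scap and the Insig proteins while sterols are plentiful, and are cut free in the Golgi when sterols run low. *Insig1* is itself an SREBP target, as is *Srebf2*. SREBPs are weak activators alone and work beside NF-Y and Sp1, which bind CCAAT and GC boxes. The LXR receptors, which sense oxysterols, raise sterol efflux genes, *Srebf1* and the desaturase *Scd1*.

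Libraries held 24618587 to 28445952 reads on genes, and levels are given as CPM of the TMM-scaled library. *Tbxt*, the edited gene, had 47 and 42 reads in wild-type, 26 and 22 in Δexon6/Δexon6, 39 and 54 in Δexon6/+, and 30 and 29 in insASAY/insASAY libraries, and counts per gene do not show whether exon 6 is present. The summed level of 8 ES cell markers was 1182 and 1139 CPM in wild-type against 557 to 799 CPM in the other 6 libraries, with no overlap. That sum rests mostly on *Dppa5a* and *Pou5f1*. In each mutant line 7 of the 8 markers lay below wild-type and 1 above. In Δexon6/+ the latter was *Sox2* (117 and 109 CPM, against 71.2 and 66.2 in wild-type). In the other lines it was *Zfp42*, with 32.6 and 32.0 CPM in Δexon6/Δexon6 and 40.2 and 39.2 in insASAY/insASAY, against 29.4 and 28.7 in wild-type. The summed level of 9 fibroblast markers, which would mark feeder cells, was 27.4 and 30.8 CPM in wild-type, 30.3 and 30.9 in Δexon6/+, 18.3 and 20.9 in Δexon6/Δexon6, and 15.3 and 15.9 in insASAY/insASAY, with *Lum*, *Postn* and *Twist2* at 0 to 7 reads. Of the 6 tested, 3 lay above and 3 below wild-type in Δexon6/+. There *Col1a2* had 7.38 and 8.83 CPM (4.98 and 5.25 in wild-type) and *Col1a1* 10.7 and 9.65 (11.8 and 14.2 in wild-type). In Δexon6/Δexon6 5 lay below and 1, *Dcn*, above (2.87 and 3.01 CPM, against 2.06 and 2.31). The 4 neural progenitor markers split: *Nes*, the most abundant, was highest in Δexon6/Δexon6 (136 and 185 CPM, against 68.2 to 117 elsewhere), whereas *Sox1* and *Pax6* were highest in Δexon6/+, with 24.5 and 23.6 CPM against 5.36 to 7.91 elsewhere for *Sox1* and 6.74 and 5.93 CPM against 1.43 to 3.0 for *Pax6*. The sum of 5 primitive streak markers, mostly *Eomes*, was lowest in Δexon6/+ (8.37 and 9.73 CPM, against 14.3 to 22.2 elsewhere). Of the 3 tested, only *Eomes* lay below wild-type there, and *Mixl1* and *Tbx6*, at 5 to 38 reads per library, did not. The sum of 5 primitive endoderm markers ran from 10.4 to 18.2 CPM. The part of these differences in the results that follow was not tested. In bulk RNA, fewer cells of a type and less RNA per cell cannot be told apart.

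The promoters of 23 of the 29 genes were matched by symbol in a RefSeq table on GRCm38.p6, with 28 start sites in all. The stretches below, of 162 to 250 bases, end at the start site, or before the first base that GENCODE M21 places in an exon. They are from *Insig1*, *Srebf2* and *Mvd*, which were lower in insASAY/insASAY cells, and from *Hmgcs1*, the most abundant mevalonate enzyme per length. Capitals mark NF-Y boxes (CCAAT or its reverse complement ATTGG) and the core of a sterol response element (TCACNCCAC, searched on both strands).
Insig1, chr5:28071162-28071362, + strand: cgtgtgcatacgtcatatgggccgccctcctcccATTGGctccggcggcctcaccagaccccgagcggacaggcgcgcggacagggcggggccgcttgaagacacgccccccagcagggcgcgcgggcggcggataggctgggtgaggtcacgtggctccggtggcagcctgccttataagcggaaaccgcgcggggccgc
Srebf2, chr15:82147019-82147180, + strand: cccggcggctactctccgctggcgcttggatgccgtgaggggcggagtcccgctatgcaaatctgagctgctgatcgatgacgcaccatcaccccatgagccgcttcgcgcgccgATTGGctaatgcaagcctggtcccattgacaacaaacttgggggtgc
Mvd, chr8:122443423-122443672, - strand: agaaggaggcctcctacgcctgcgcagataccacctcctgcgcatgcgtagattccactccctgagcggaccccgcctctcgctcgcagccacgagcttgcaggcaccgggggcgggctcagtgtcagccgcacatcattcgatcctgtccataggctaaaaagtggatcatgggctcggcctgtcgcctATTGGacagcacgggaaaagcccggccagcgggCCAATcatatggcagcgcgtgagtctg
Hmgcs1, chr13:119690101-119690350, + strand: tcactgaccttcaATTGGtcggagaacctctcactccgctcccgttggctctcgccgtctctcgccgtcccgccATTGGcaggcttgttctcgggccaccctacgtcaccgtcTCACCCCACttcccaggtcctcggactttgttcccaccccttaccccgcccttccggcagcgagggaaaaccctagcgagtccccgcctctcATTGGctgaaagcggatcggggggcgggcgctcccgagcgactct
The sterol response core occurred in 1 of the 28 promoters, that of *Hmgcs1*, and in 1.24% of all 32851 promoters. Only exact matches were counted, so a stretch such as tcaccccat in *Srebf2*, which differs in its last base, was not. A promoter without a match may therefore still hold a sterol response element. No promoter was matched for *Fdft1*, *Fdps*, *Scd1*, *Scd2*, *Sqle* and *Stard4*, which were not searched. NF-Y boxes were in 21 of 28 (75.0%), against 37.4% of all promoters and 44.1% of those of 26 further pathway genes. GC boxes (GGGCGG, either strand) were likewise in 75.0% against 35.7% of all promoters and 67.6% of those of the further pathway genes, and the E-box CACGTG in 14.3% against 7.15%, below the 17.6% of the further pathway genes. The windows searched span 300 bases, from 250 before to 50 after the start, and a match is a run of letters, not a bound site.

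All 29 genes were expressed in every library. Per kilobase of exon, the mean level over the 8 libraries was highest for *Hmgcs1* (122 CPM per kb), *Srebf2* (120), *Acly* (116), *Scd2* (82.5) and *Lbr* (74.1). The lowest levels were those of *Fdps* (1.79 CPM per kb), *Hsd17b7* (5.73) and *Ebp* (6.35). *Fdps*, farnesyl diphosphate synthase, had only 156 to 239 reads per library. Of its 100-base runs, 21.4% also occur in other genes and 26.7% of its exons overlap *Gm43738* on the same strand, so its count is uncertain. Between the regulators, *Srebf2* stood above *Srebf1* in every library by 5.35 to 8.02 times per kilobase.

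**Figure D1:**
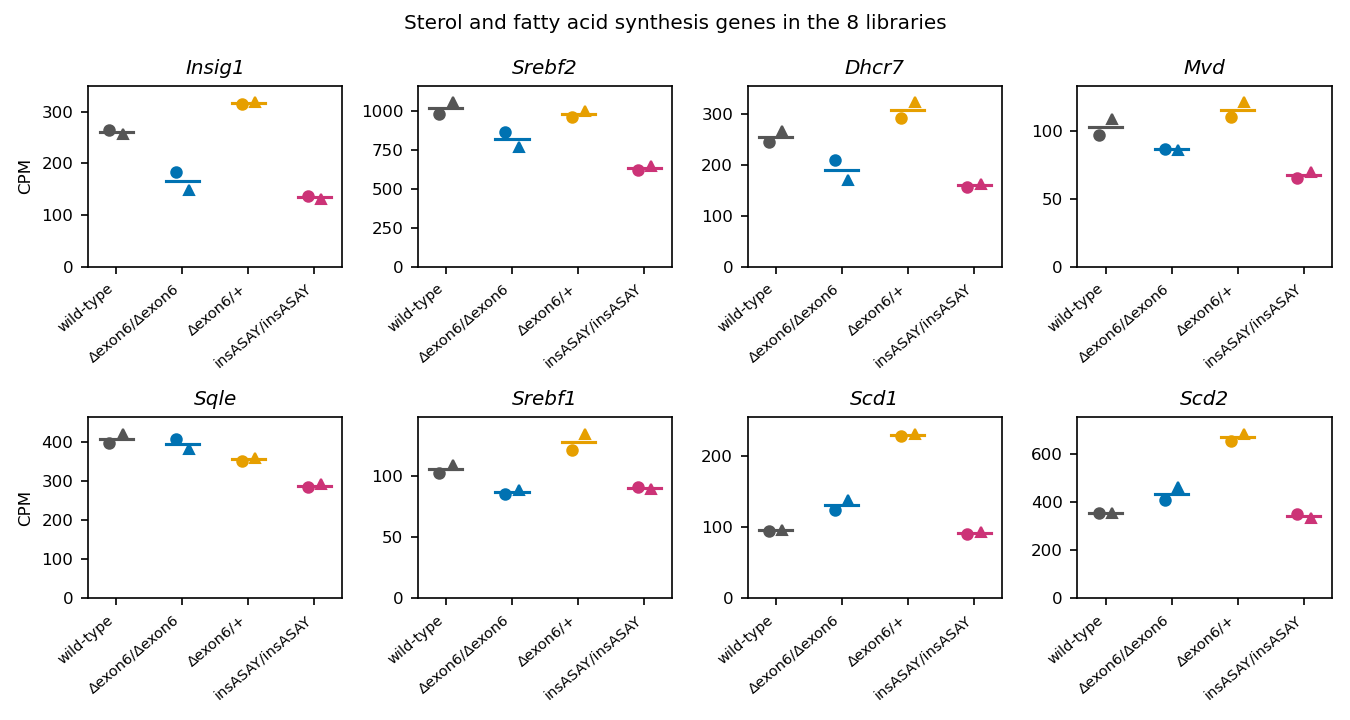
Level of 8 named genes, in CPM on a linear axis that starts at 0, in each of the 8 libraries. Circles are replicate 1, triangles replicate 2, and each horizontal line is a genotype's mean. *Insig1* runs from 131 CPM in insASAY/insASAY to 318 CPM in Δexon6/+, and *Scd1* stands at 229 and 232 CPM in Δexon6/+ against 90.8 to 138 CPM in the other 6 libraries.

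In insASAY/insASAY cells 2 of the 4 regulators and transport genes and 3 sterol enzymes were lower than in wild-type. *Insig1*, *Srebf2*, *Dhcr7*, *Mvd* and *Sqle* fell, by 1.42 to 1.95 times, and no gene of the list rose past the threshold. The threshold was an adjusted p under 0.05, by edgeR's quasi-likelihood test with Benjamini-Hochberg adjustment over 17049 genes, and a log2 fold change beyond 0.5 in size. The 5 of 29 genes called are 17.2%, beside 21.3% of all tested genes called in either direction (9.85% lower and 11.5% higher). At any size of change, 15 of the 29 passed the adjusted p lower and 5 higher, beside 24.1% and 23.2% of all genes. The median log2 fold change was −0.15 over the 29 genes and −0.01 over all genes.

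*Insig1* encodes the endoplasmic reticulum protein that retains SREBPs and lies on chromosome 5 (28071363 to 28078662, GRCm38). Its level was 265 and 258 CPM in wild-type, 183 and 148 in Δexon6/Δexon6, 314 and 318 in Δexon6/+, and 137 and 131 in insASAY/insASAY libraries. No library of one genotype overlapped those of another. Against wild-type, the log2 fold change was −0.96 ± 0.07 (SE, n = 2 against 2; edgeR adjusted p = 2.24e-06) in insASAY/insASAY, a fall of 1.95 times. In Δexon6/Δexon6 it was −0.66 ± 0.07 (edgeR adjusted p = 8e-05), a fall of 1.58 times. In Δexon6/+ it was 0.28 ± 0.07 (edgeR adjusted p = 0.011), under the size threshold. *Insig1* was the only gene of the 29 called in more than 1 comparison with wild-type, except that *Dhcr7* and *Scd1* joined it without replicate 1 of Δexon6/Δexon6. Of the 5 tested genes within 250 kb of it, 1 was called lower in Δexon6/Δexon6, 0 in insASAY/insASAY and 1 higher in Δexon6/+. The median log2 fold change of these neighbours in Δexon6/+ was 0.45, above that of *Insig1* itself. *Insig2*, its paralogue, was called in none of these comparisons (log2 fold changes of 0.12, −0.27 and −0.05 in Δexon6/Δexon6, Δexon6/+ and insASAY/insASAY). Per kilobase, *Insig1* stood 14.9 and 15.1 times above *Insig2* in wild-type, 21.5 and 22.2 times in Δexon6/+, 8.35 and 9.11 times in Δexon6/Δexon6, and 7.87 and 8.07 times in insASAY/insASAY.

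*Srebf2*, on chromosome 15, had 981 and 1055 CPM in wild-type and 961 and 1000 CPM in Δexon6/+ libraries, which overlapped. It had 868 and 772 CPM in Δexon6/Δexon6 and 618 and 644 CPM in insASAY/insASAY libraries, both below wild-type. The log2 fold change was −0.69 ± 0.06 in insASAY/insASAY (edgeR adjusted p = 3.37e-06). It was −0.31 ± 0.06 in Δexon6/Δexon6 (edgeR adjusted p = 0.0014), short of the size threshold, and −0.05 ± 0.06 in Δexon6/+ (edgeR adjusted p = 0.51). *Srebf1*, on chromosome 11, was called against wild-type in no line. It had 103 and 109 CPM in wild-type, 84.8 and 88.5 in Δexon6/Δexon6, 121 and 134 in Δexon6/+, and 90.6 and 89.2 in insASAY/insASAY libraries, with log2 fold changes of −0.29, 0.27 and −0.24 in that order of the lines. The per-kilobase ratio of *Srebf2* to *Srebf1* was 7.49 and 7.59 in wild-type and 5.35 and 5.67 in insASAY/insASAY libraries, so the transcripts fell unequally there. It was also below wild-type in Δexon6/+ libraries (6.22 and 5.84), and was 8.02 and 6.84 in Δexon6/Δexon6. That ratio was not tested. *Stard4*, a soluble sterol carrier, ranged from 50.1 to 64.9 CPM and was called in no comparison.

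Among the 7 mevalonate genes, *Mvd*, mevalonate diphosphate decarboxylase on chromosome 8, was the only one called against wild-type, except for *Pmvk* in Δexon6/+ without wild-type replicate 2. Its level was 97.2 and 109 CPM in wild-type, 86.9 and 86.0 in Δexon6/Δexon6, 110 and 121 in Δexon6/+, and 65.3 and 69.6 in insASAY/insASAY libraries. Both insASAY/insASAY libraries lay below all others, and the log2 fold change was −0.61 ± 0.07 (edgeR adjusted p = 1.52e-05). *Hmgcs1*, HMG-CoA synthase, had 608 and 603 CPM in wild-type, 602 and 595 in Δexon6/Δexon6, 539 and 562 in Δexon6/+, and 476 and 490 in insASAY/insASAY libraries. Its log2 fold change in insASAY/insASAY was −0.33 ± 0.04 (edgeR adjusted p = 5.14e-05), a shift that passed on p and not on size. The group did not move one way: *Acat2*, *Idi1* and *Mvk* passed the adjusted p upward in insASAY/insASAY, with log2 fold changes of 0.19, 0.22 and 0.30, and upward in Δexon6/Δexon6 too, with 0.36, 0.34 and 0.26. *Acat2* makes acetoacetyl-CoA, *Idi1* isomerizes isopentenyl diphosphate and *Mvk* phosphorylates mevalonate. Of the 100-base runs of *Acat2*, 28.9% occur in other genes, such as *Acat3*, and of those of *Idi1* 21.9%, so their counts are uncertain.

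Of the 12 genes from squalene to cholesterol, 8 passed the adjusted p lower and 1 higher in insASAY/insASAY cells, and 2 of the 8 were called. *Dhcr7*, the reductase of the last step to cholesterol, lies on chromosome 7. It had 244 and 266 CPM in wild-type, 210 and 170 in Δexon6/Δexon6, 293 and 323 in Δexon6/+, and 157 and 163 in insASAY/insASAY libraries. No genotypes overlapped, and the order of the lines was that of *Insig1*. The log2 fold change was −0.67 ± 0.08 in insASAY/insASAY (edgeR adjusted p = 3.58e-05) and −0.43 ± 0.08 in Δexon6/Δexon6 (edgeR adjusted p = 0.0018), where only the first passed on size. *Sqle*, squalene epoxidase and a rate-limiting step, had 397 and 420 CPM in wild-type, 408 and 381 in Δexon6/Δexon6, 352 and 360 in Δexon6/+, and 284 and 292 in insASAY/insASAY libraries. Its log2 fold change in insASAY/insASAY, −0.50 ± 0.05 (edgeR adjusted p = 7.55e-06), lay at the size threshold, and the call was lost without wild-type replicate 2 (−0.47) or insASAY/insASAY replicate 1 (−0.49). *Lbr*, the lamin B receptor and a sterol C14 reductase, was the most abundant of the group per kilobase. It had 391 and 395 CPM in wild-type, 360 and 349 in Δexon6/Δexon6, 347 and 365 in Δexon6/+, and 312 and 301 in insASAY/insASAY libraries, and was called nowhere. Its level per kilobase was 7.20 to 10.1 times that of *Tm7sf2*, the other C14 reductase. Of the exons of *Tm7sf2*, 12.1% overlap *Vps51* on the same strand. Of its 100-base runs 7.92% occur in other genes, and of those of *Lbr* 6.94%, so that ratio is uncertain. The uncalled members ranged in insASAY/insASAY from −0.48 on the log2 scale for *Hsd17b7*, a 3-ketosteroid reductase, to 0.25 for *Nsdhl*, a sterol dehydrogenase. *Hsd17b7* was called without wild-type replicate 1 or insASAY/insASAY replicate 1.

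**Figure D2:**
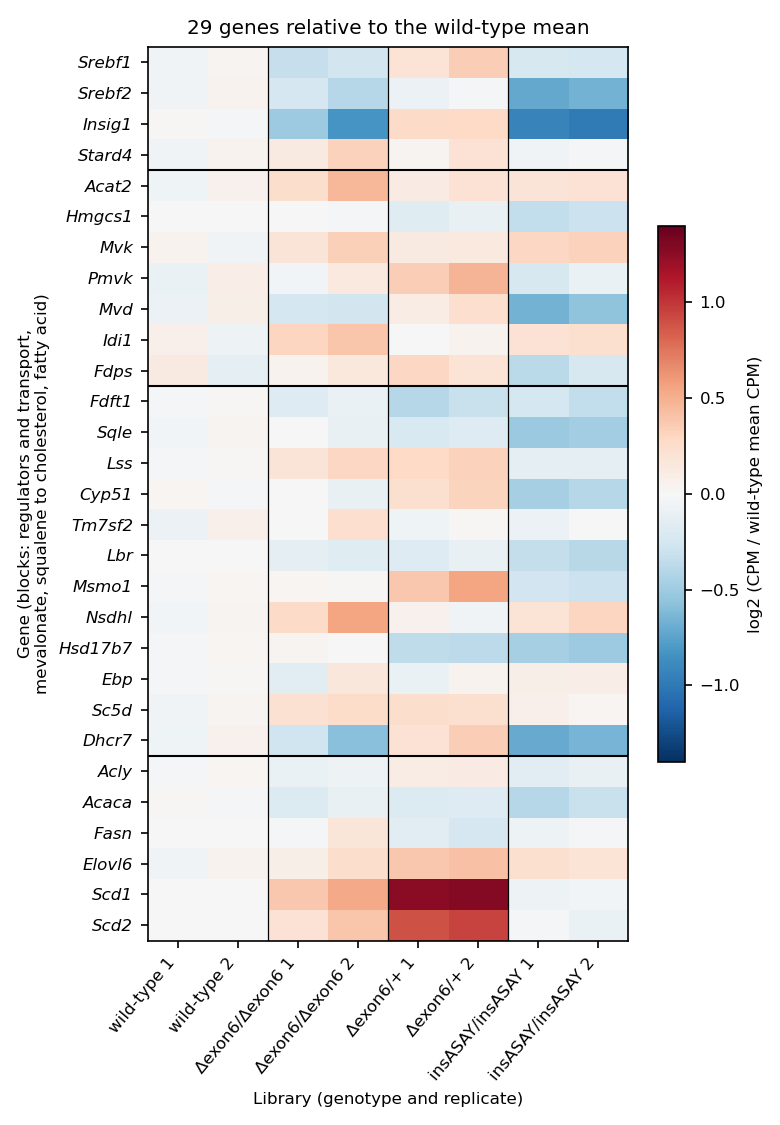
Log2 level of each of the 29 genes in each library relative to the wild-type mean, with genes in rows by role and libraries in columns by genotype. The colour bar gives the scale. *Insig1*, *Srebf2*, *Dhcr7* and *Mvd* are lowest in the insASAY/insASAY columns, and *Scd1* and *Scd2* highest in the Δexon6/+ columns.

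Fatty acid genes did not pass the threshold in insASAY/insASAY cells. *Acly*, ATP citrate lyase, which supplies cytosolic acetyl-CoA, had 609 and 633 CPM in wild-type, 584 and 592 in Δexon6/Δexon6, 665 and 672 in Δexon6/+, and 561 and 578 in insASAY/insASAY libraries. The log2 fold changes of the 6 genes in insASAY/insASAY ranged from −0.36 for *Acaca*, acetyl-CoA carboxylase, to 0.21 for *Elovl6*, a fatty acid elongase. Of the 100-base runs of *Acaca*, 23.7% occur in other genes.

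In Δexon6/+ cells the stearoyl-CoA desaturases *Scd1* and *Scd2*, which make monounsaturated fatty acids, rose, and no gene of the list fell past the threshold. These 2 of 29 genes are 6.90%, beside 13.5% of all tested genes called in either direction (6.60% higher). At any size of change, 11 of the 29 passed the adjusted p higher and 7 lower, beside 15.4% and 16.2% of all genes, and the median log2 fold change was 0.13 against 0.00 over all genes.

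*Scd1* had 95.3 and 95.7 CPM in wild-type, 124 and 138 in Δexon6/Δexon6, 229 and 232 in Δexon6/+, and 90.8 and 93.3 in insASAY/insASAY libraries. It was 2.42 times wild-type in Δexon6/+, with a log2 fold change of 1.27 ± 0.05 (edgeR adjusted p = 1.27e-08). In Δexon6/Δexon6 the log2 fold change was 0.46 ± 0.05 (edgeR adjusted p = 0.00011), under the size threshold, and in insASAY/insASAY −0.05 ± 0.05 (edgeR adjusted p = 0.45). *Scd2* had 355 and 355 CPM in wild-type, 408 and 464 in Δexon6/Δexon6, 657 and 685 in Δexon6/+, and 350 and 332 in insASAY/insASAY libraries. It was 1.89 times wild-type in Δexon6/+, with a log2 fold change of 0.92 ± 0.06 (edgeR adjusted p = 2.18e-07). For both desaturases the order of the libraries was the same, with Δexon6/+ highest, Δexon6/Δexon6 next, then wild-type and insASAY/insASAY. The genes lie on chromosome 19, 87.6 kb apart. Of the tested genes within 250 kb, 6 around *Scd1* and 8 around *Scd2*, none was called in Δexon6/+, with medians of −0.07 and −0.13 on the log2 scale. Of the 100-base runs of *Scd1*, 2.58% occur in other genes, and of those of *Scd2* 0.879%. Per kilobase, *Scd2* stood 3.32 and 3.33 times above *Scd1* in wild-type and 2.56 and 2.64 times in Δexon6/+ libraries.

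The other 4 fatty acid genes in Δexon6/+ ranged from −0.19 on the log2 scale for *Fasn*, fatty acid synthase, to 0.40 for *Elovl6*. The sterol enzymes were not called in this line, at −0.36 for *Hsd17b7* and 0.47 for *Msmo1*, a sterol methyl oxidase, at the ends of their range. *Msmo1* was called without Δexon6/+ replicate 1. *Fdps*, *Pmvk*, which makes mevalonate diphosphate, and *Elovl6* lie on chromosome 3, whose 848 tested genes had a median log2 fold change of 0.32 in Δexon6/+ cells. The values of these 3 genes there were 0.24, 0.41 and 0.40, beside medians of 0.40, 0.40 and 0.55 over the 147, 148 and 43 other tested genes within 5 Mb. In the other lines the median of chromosome 3 was −0.01 in both.

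In Δexon6/Δexon6 cells *Insig1* was the only gene of the list called, and it fell. That is 1 of 29 (3.45%), beside 12.7% of all tested genes called in either direction (6.59% lower). At any size of change, 10 of the 29 passed the adjusted p higher and 7 lower, beside 18.3% and 17.1% of all genes. The median log2 fold change was 0.03, against −0.01 over all genes. The sterol enzymes ranged from −0.43 for *Dhcr7* to 0.42 for *Nsdhl*, and the fatty acid genes from −0.15 for *Acaca* to 0.46 for *Scd1*. The 2 clones differed for these genes by a median of 0.10 on the log2 scale, against 0.08, 0.07 and 0.05 between the libraries of wild-type, Δexon6/+ and insASAY/insASAY. Without replicate 1 of Δexon6/Δexon6 4 genes were called, the additional ones being *Dhcr7*, *Nsdhl* and *Scd1*.

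**Figure D3:**
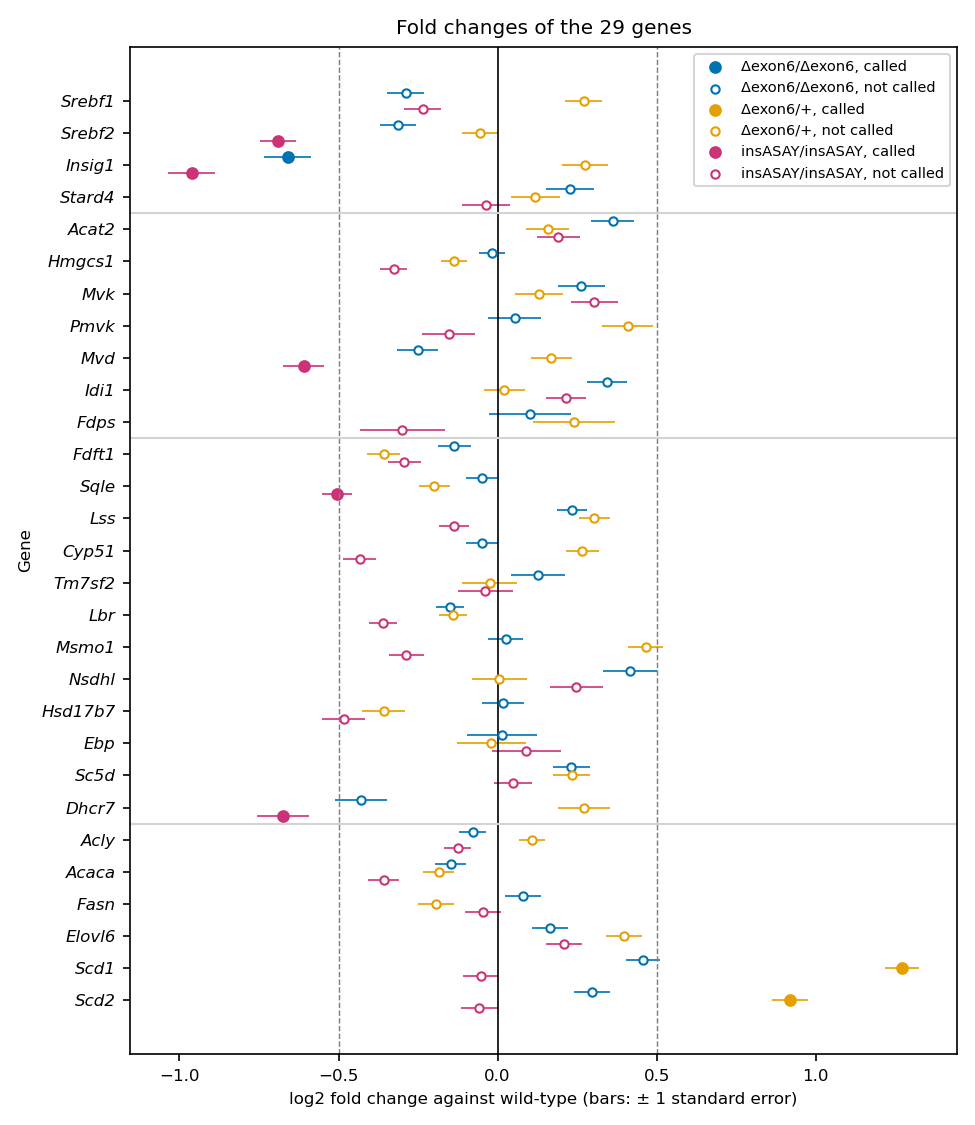
Log2 fold change of each of the 29 genes against wild-type in the 3 mutant lines, with genes in rows by role. Bars are ± 1 SE from edgeR, filled points passed both thresholds, and dashed lines mark a log2 fold change of 0.5 in either direction. The filled points are *Insig1* in Δexon6/Δexon6, *Scd1* and *Scd2* in Δexon6/+, and *Insig1*, *Srebf2*, *Dhcr7*, *Mvd* and *Sqle* in insASAY/insASAY.

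The mutant lines were then compared with each other. Between insASAY/insASAY and Δexon6/+ cells, 11 of the 29 genes were called (37.9%), all lower in insASAY/insASAY, beside 27.5% of all tested genes in either direction (13.0% lower). They were *Scd1* (log2 fold change −1.33), *Insig1* (−1.24), *Scd2* (−0.98), *Dhcr7* (−0.95), *Mvd* (−0.78), *Msmo1* (−0.75), *Cyp51* (−0.70), *Srebf2* (−0.64), *Pmvk* (−0.56), *Fdps* (−0.54) and *Srebf1* (−0.51), with edgeR adjusted p from 1.29e-08 for *Scd1* to 0.0039 for *Fdps*. Every role group held at least 2 of them. *Cyp51*, lanosterol 14-demethylase, had 216 and 225 CPM in insASAY/insASAY against 347 and 370 CPM in Δexon6/+ libraries, and *Msmo1* 207 and 202 against 324 and 365 CPM. Neither was called against wild-type in either line. *Pmvk* and *Fdps* lie on chromosome 3, whose median in this comparison was −0.29. The weakest 3 calls each rested on single libraries. *Pmvk* was lost without insASAY/insASAY replicate 1 (−0.50) or Δexon6/+ replicate 2 (−0.50), *Fdps* without insASAY/insASAY replicate 1 (−0.46) or Δexon6/+ replicate 1 (−0.49), and *Srebf1* without insASAY/insASAY replicate 2 (−0.50) or Δexon6/+ replicate 2 (−0.43).

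Between Δexon6/+ and Δexon6/Δexon6 cells, 5 of the 29 genes (17.2%) were called, all higher in Δexon6/+, beside 22.2% of all tested genes (11.2% higher). These were *Insig1* (0.94 ± 0.07), *Scd1* (0.81 ± 0.05), *Dhcr7* (0.70 ± 0.08), *Scd2* (0.62 ± 0.06) and *Srebf1* (0.56 ± 0.06), on the log2 scale. *Srebf1* was lost without Δexon6/+ replicate 2 (0.48), while *Msmo1* was gained as higher without Δexon6/+ replicate 1. Without Δexon6/Δexon6 replicate 1 *Nsdhl* was gained as lower in Δexon6/+, so that the calls then went 5 higher and 1 lower. *Insig1* was thus called lower than wild-type in cells with exon 6 deleted on both alleles, while cells with 1 deleted allele lay above wild-type. Between insASAY/insASAY and Δexon6/Δexon6 cells, 2 genes (6.90%) were called lower in insASAY/insASAY, *Scd1* (−0.51) and *Hsd17b7* (−0.50), beside 5.16% of all tested genes (2.38% lower). Both values lay at the size threshold. *Hsd17b7* was lost without Δexon6/Δexon6 replicate 1 (−0.50) or insASAY/insASAY replicate 2 (−0.48), and *Scd1* without insASAY/insASAY replicate 1 (−0.49) or Δexon6/Δexon6 replicate 2 (−0.43), which left a count of 1, or 2 in the last case with *Sqle*. At any size of change, 14 of the 29 passed the adjusted p lower and 0 higher in this comparison, beside 9.80% and 5.60% of all genes. The 6 comparisons share libraries, so their counts are not independent of each other. Over all of them 13 genes (44.8%) were called at least once and 16 were not, beside 42.5% of all tested genes called at least once.

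As summed levels, the 29 genes together had 6781 ± 129 CPM in wild-type (SD, n = 2), 6544 ± 51.9 in Δexon6/Δexon6, 7362 ± 181 in Δexon6/+ and 5518 ± 55.8 in insASAY/insASAY cells. The sum for the regulators and the sterol carrier was 1437 ± 54.3 CPM in wild-type, 1133 ± 84.3 in Δexon6/Δexon6, 1480 ± 43.7 in Δexon6/+ and 906 ± 14.8 in insASAY/insASAY, and follows *Srebf2*, the most abundant of the 4. That of the genes from squalene to cholesterol was 2177 ± 48.1 CPM in wild-type, 2091 ± 35.1 in Δexon6/Δexon6, 2285 ± 94.9 in Δexon6/+ and 1698 ± 1.06 in insASAY/insASAY. For the mevalonate genes the lines other than insASAY/insASAY (831 ± 18.6 CPM) lay between 959 ± 35.2 and 996 ± 21.7 CPM. The fatty acid sum was highest in Δexon6/+ (2638 ± 7.40 CPM, against 2202 ± 16.3 in wild-type). These sums weigh genes by their abundance and were not tested.

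**Figure D4:**
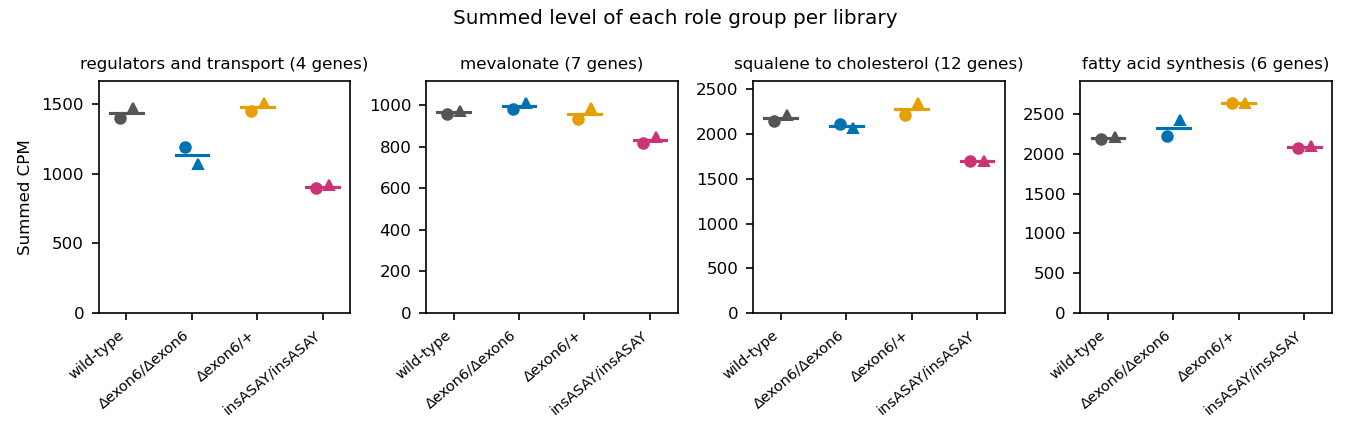
Summed CPM of the genes of each role group in every library, on linear axes that start at 0. Circles are replicate 1, triangles replicate 2, and each horizontal line is a genotype's mean. The insASAY/insASAY libraries are lowest in all 4 groups, and the Δexon6/+ libraries highest for the fatty acid genes.

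A further 30 genes of sterol synthesis, SREBP control, fatty acid metabolism and sterol efflux were set beside the list, and all were tested. The share called was 13.3% in insASAY/insASAY, 6.67% in Δexon6/+ and 6.67% in Δexon6/Δexon6, each below that of all tested genes (21.3%, 13.5% and 12.7%). At any size of change the shares were not all below. In Δexon6/+ 36.7% of the 30 passed the adjusted p higher and 20% lower, beside 15.4% and 16.2% of all genes. The shares were 20% and 30% in insASAY/insASAY, beside 23.2% and 24.1%. In Δexon6/Δexon6 they were 20% and 13.3%, beside 18.3% and 17.1%. Among calls past both thresholds, here and below, 2 of the 30 rose and 2 fell in insASAY/insASAY cells. On the log2 scale, *Mid1ip1*, a partner of acetyl-CoA carboxylase, fell by 0.56 and *Abcg1*, a sterol exporter, by 1.53. *Hacd3*, a dehydratase of fatty acid elongation, rose by 0.62 and *Abca1*, the other sterol exporter, by 0.78 on that scale. *Abca1* and *Abcg1* rest on few reads, 10 to 66 and 16 to 129 per library. In Δexon6/Δexon6 cells 0 of the 30 rose and 2 fell. *Abcg1* fell by 2.00 and *Acacb*, the mitochondrial acetyl-CoA carboxylase, by 0.65 on the log2 scale. In Δexon6/+ cells 0 rose and 2 fell, *Abca1* by 1.36 and *Nr1h2*, which encodes LXRβ, by 0.56 on the log2 scale. *Nr1h2* had 43.2 and 45.8 CPM in wild-type and 30.5 and 29.7 CPM in Δexon6/+ libraries. None of the 4 SREBP control genes (*Scap*, *Insig2*, *Mbtps1* and *Mbtps2*) was called against wild-type in any line.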

How the data were processed

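RNA of 8 libraries of mouse ES cells was sequenced as poly(A), strand-specific libraries on a single lane. The authors mapped the reads to mm10 with STAR 2.7.2a and deposited whole-number counts of reads per gene, with no normalization; the annotation they counted on is not given in the sources used here. The counts of the strand opposite to the first read were used, since the columns for the first-read strand held 4.11 to 4.78% of the reads. STAR's 4 summary lines, found in 7 of the files, were left out. They stand for 26.2 to 29.0% of the reads beside those on genes. Gene IDs were matched without version to GENCODE M21 (GRCm38) for 48058 of the 48440 genes.

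Genotypes came from the labels. Counts were normalized by TMM and filtered with filterByExpr (minimum count 10, minimum total 15), which left 17049 genes, and fitted with edgeR 4.0.16 in R 4.3.3 over all 8 libraries with 1 coefficient per genotype. The quasi-likelihood test was used with Benjamini-Hochberg adjustment. Calls required a log2 fold change over 0.5 in size besides an adjusted p below 0.05, the thresholds that the study used with DESeq2 1.40.2. An SE is the log2 fold change divided by the square root of F. The steps were tested on simulated counts. Alternatives were DESeq2 1.42.0, its size factors in edgeR, other filters, unstranded counts, fits of only 2 genotypes, a replicate block and leaving out each library.

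The genes and lists were chosen with earlier results of these data known. Values in every library are given, by rule, for genes called against wild-type, the most abundant gene per length of each role group, *Srebf1*, *Srebf2*, *Insig1*, *Scd1* and *Scd2*. Up to 3 called genes of each further list were named. Some genes of the further lists are not reported here, so the counts over those lists leave them out. *Cyp51*, *Msmo1*, *Nsdhl* and *Hsd17b7* are named as called between lines or at the end of a range. Promoters came from RefSeq on GRCm38.p6. Tables and plots used Python 3.11.15, pandas 2.3.3 and matplotlib 3.10.9. With 2 libraries a group, depth limits *Fdps*, *Abca1*, *Abcg1* and *Tbxt* most.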

Additional observations from a re-analysis of the deposited data

Results flagged for a closer look

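The effects of the lines differed from each other in 18 cases in which the difference itself passed edgeR's test and the size threshold. Between Δexon6/+ and Δexon6/Δexon6 cells these were *Insig1* (0.94 on the log2 scale), *Scd1* (0.81), *Dhcr7* (0.70), *Scd2* (0.62) and *Srebf1* (0.56), higher in Δexon6/+. Between insASAY/insASAY and Δexon6/Δexon6 cells they were *Scd1* (−0.51) and *Hsd17b7* (−0.50), lower in insASAY/insASAY. Between insASAY/insASAY and Δexon6/+ cells they were *Scd1* (−1.33), *Insig1* (−1.24), *Scd2* (−0.98), *Dhcr7* (−0.95), *Mvd* (−0.78), *Msmo1* (−0.75), *Cyp51* (−0.70), *Srebf2* (−0.64), *Pmvk* (−0.56), *Fdps* (−0.54) and *Srebf1* (−0.51), lower in insASAY/insASAY. Choosing cases by a large difference between lines favours opposite sides, and every side is set against the same wild-type libraries. The fitted values of the lines lay on opposite sides of wild-type in 15 of the 18. In 8 of these both sides passed the adjusted p against wild-type. They were *Insig1*, *Dhcr7* and *Srebf1* in the first and last comparison, and *Cyp51* and *Msmo1* in the last. The same shares over all genes called between the lines were not counted, so these counts only describe the cases. In 3 of the 18 both lines lay on the same side of wild-type. Between Δexon6/+ and Δexon6/Δexon6 both lines passed the adjusted p above it for *Scd1* (1.27 and 0.46) and *Scd2* (0.92 and 0.30). The other was *Srebf2* between insASAY/insASAY (−0.69) and Δexon6/+ (−0.05), both below. In the remaining cases a side lay near wild-type or did not pass. Examples are *Scd1* and *Scd2* in insASAY/insASAY (−0.05 and −0.06) and *Mvd* in Δexon6/+ (0.17, edgeR adjusted p = 0.060).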

How the results depend on the processing

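Directions against wild-type were followed for the genes called in any line and for *Srebf1*, *Hmgcs1*, *Lbr* and *Acly*. Between lines they were followed for the genes called. None of these reversed under any alternative. The other genes were not followed, and *Ebp* in Δexon6/Δexon6 had libraries on both sides of the wild-type mean (−0.16 and 0.16 on the log2 scale). The calls against Δexon6/Δexon6 and at the size threshold were the least stable. The count of genes called in Δexon6/Δexon6 against wild-type ran from 1 to 4 when single libraries were left out, with 4 without replicate 1 of Δexon6/Δexon6. That of insASAY/insASAY against Δexon6/Δexon6 ran from 1 to 2, and was 1 with at least 10 reads in every library, with unstranded counts and with only the 2 genotypes fitted, in each of which *Hsd17b7* was lost. Counts in the other 4 comparisons stayed within 1.5 times. With at least 10 reads in every library *Sqle* in insASAY/insASAY against wild-type and *Srebf1* in insASAY/insASAY against Δexon6/+ were also lost. Where a library was left out, the lone library of its group is assumed to vary like the others. Over 12837 genes, libraries with the same replicate number did not deviate together (correlations of −0.10 to 0.07). Among the genes of the list, replicate 2 was the higher for most in every genotype. It was higher for 21 and lower for 8 in wild-type, and for 19 and 10 in Δexon6/Δexon6. The numbers were 24 and 5 in Δexon6/+, and 19 and 10 in insASAY/insASAY. In that order the median shifts were 0.06, 0.09, 0.06 and 0.03 on the log2 scale, against 0.0006 to 0.0065 over genes above 2 CPM. This shift was not tested. With replicate number as a block the counts of genes called against wild-type stayed at 1 (Δexon6/Δexon6), 2 (Δexon6/+) and 5 (insASAY/insASAY). Those between the lines stayed at 5, 2 and 11.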
